A study of Macaca mulatta with 6 samples.

Results

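The genes described here are those of myelin and of the oligodendrocyte, chosen by name from the platform annotation of the array. The list named 9 genes (MBP, MOG, MAG, MOBP, CNP, OLIG1, OLIG2, SOX10 and PMP22). Of these, 5 were measured by probe sets under their own symbol (MBP, CNP, PMP22, OLIG2 and SOX10), out of 14132 named genes in all, and they had 11 probe sets. MOG, MAG, MOBP and OLIG1 were not analysed here. The samples were retinas of 3 adult male rhesus macaques. Treated retinas lay on the side on which the intraorbital optic nerve had received 15 Gy by gamma knife surgery, a form of focused irradiation, and control retinas were those of the other eye of the same animals, so that both groups came from animals that had been irradiated and anesthetized. Both were collected 24 h after the treatment, and RNA of the temporal part of each neural retina went onto its own Affymetrix Rhesus Macaque Genome Array, which gave 3 treated and 3 control arrays. Per the study, a low dose also reached both eyeballs, the treated side more than the other, and its part in any difference cannot be told apart from that of the nerve injury.

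Oligodendrocytes wrap the axons of the central nervous system in myelin, a stack of membrane held together by proteins such as MBP. In primates the axons of retinal ganglion cells run through the retina without myelin and gain it only in the optic nerve, behind the eye, so that the neural retina holds few or no mature oligodendrocytes. Several genes known for myelin have other sites of expression. CNP activity is known from bovine photoreceptors, PMP22 is made by fibroblasts and epithelia, and SOX10 marks pigment cells as well as myelinating glia.

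Values are log2 signals, in which a step of 1 is a doubling. Probe sets differ in how well they bind their transcripts, so differences are taken only within a probe set, between retinas. Levels set beside an array median, ranked by brightness or summed over genes are thus only a rough guide. Differences are treated minus control, fitted in pairs of the same replicate number with limma, and p-values were adjusted over all 52024 probe sets. The median log2 signal of an array lay between 6.44 and 6.98 in treated retinas and between 6.69 and 7.03 in control retinas. Log2 signals under 5 made up 22.6% to 29.7% of all on treated arrays and 22.6% to 25.9% on control arrays, with the highest share on the treated array of replicate 2. As a check of the tissue, all 5 rod markers that were measured lay above the array median on 6 of 6 arrays. Of the 4 oligodendrocyte markers that were measured, MBP, OLIG2 and SOX10 lay above it on 0 of 6 arrays and MYRF, a transcription factor of myelination, on 5 of 6, and none was at the floor of 0. With 3 arrays a group, precision is limited throughout, and in whole retinas fewer cells of a type and less RNA per cell cannot be told apart.

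None of the 5 genes passed the test between treated and control retinas. By the probe set with the highest mean signal (set 1), 0 of 5 had an adjusted p under 0.05 in limma, as against 0.111% of all probe sets, and 0 of 5 had an unadjusted p under 0.05, as against 6.74% of all probe sets. By any of the 11 probe sets, 0 passed after adjustment and 1, the second of PMP22, had an unadjusted p under 0.05. The log2 differences by set 1 ran from −0.36 for MBP to 0.47 for OLIG2, 3 above 0 and 2 below it, with a median of 0.025. The median over all named genes was 0.032. The signals of treated and control retinas overlapped for all 11 probe sets, so 0 of 11 separated the groups, as against 6.63% of all probe sets. The direction was the same in 3 of 3 pairs for 3 of the 5 genes by set 1, as against 29.1% of all probe sets, and these were CNP and OLIG2, which were higher, and SOX10, which was lower.

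**Figure D1:**
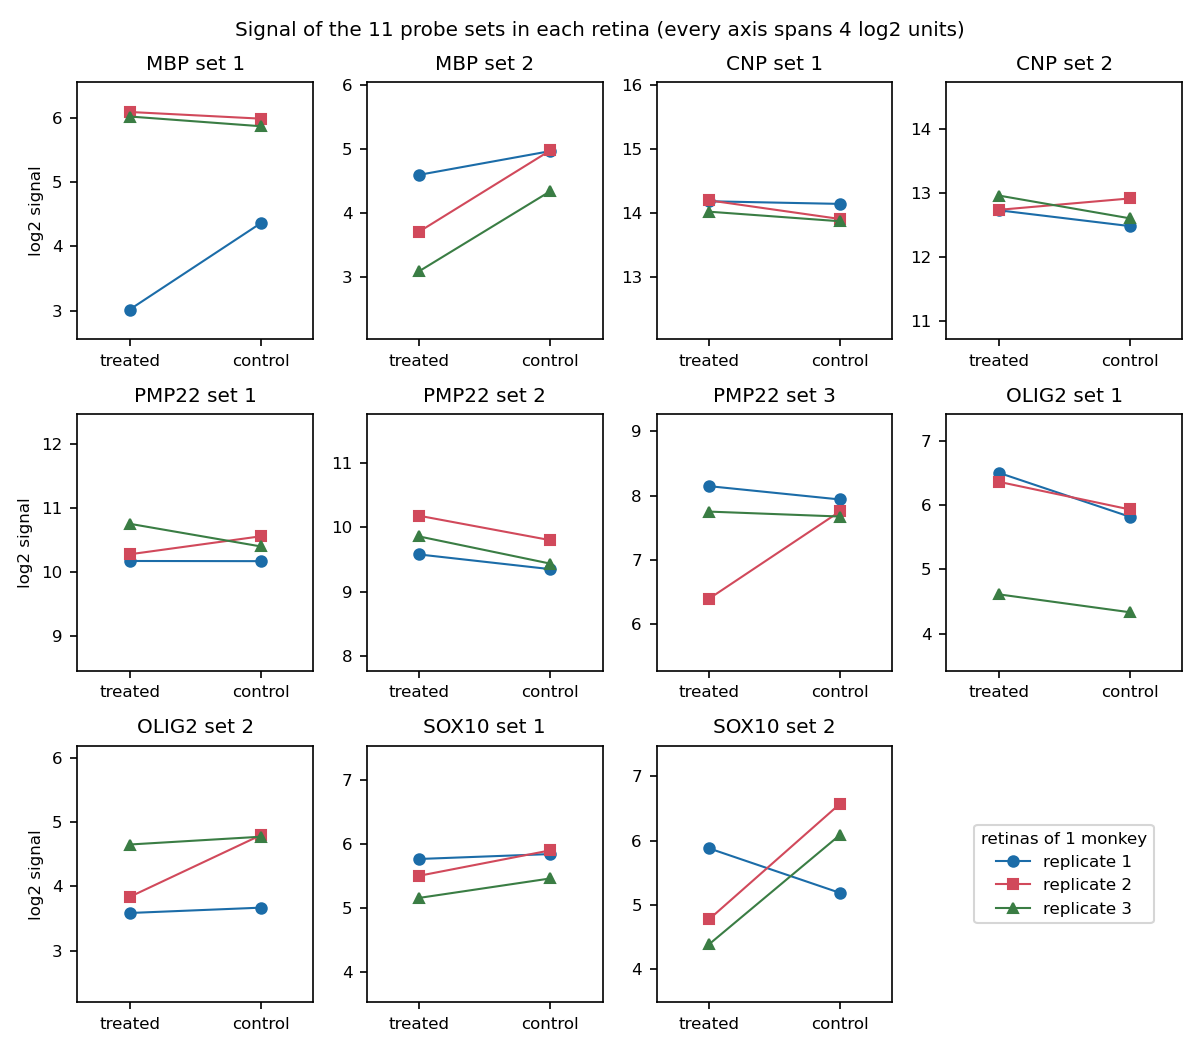
Log2 signal (vertical axis) of each of the 11 probe sets in the treated retina (left) and the control retina (right) of each monkey, with a line joining both retinas of 1 animal. The lines of CNP and of PMP22 sets 1 and 2 are nearly flat, while those of MBP, SOX10 set 2 and PMP22 set 3 slope by over 1 in at least 1 animal.

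MBP, the protein that draws the inner faces of the myelin membrane together, was measured by a pair of dim probe sets. Set 1 (MmugDNA.21844.1.S1_at) had log2 signals of 3.02, 6.10 and 6.03 in the treated retinas of replicates 1 to 3, against 4.36, 5.99 and 5.87 in their control retinas. Both retinas of replicate 1 were low and the other 4 retinas lay close together. The difference was −0.36 (SE 0.60, 95% interval −1.76 to 1.03, adjusted p = 0.912 from limma). Only replicate 1 was below 0, and without that pair the difference was 0.13. Set 2 (MmuSTS.1479.1.S1_at) had 4.60, 3.71 and 3.10 in treated retinas, against 4.97, 4.98 and 4.34 in control retinas. It was lower in 3 of 3 pairs, but all 6 of its values lay under a log2 signal of 5, and its difference of −0.96 (SE 0.71, adjusted p = 0.788) did not pass the test.

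CNP, an enzyme of the cytoplasmic channels of myelin that also binds the cytoskeleton, was bright. Set 1 (MmugDNA.9604.1.S1_at) had log2 signals of 14.18, 14.20 and 14.02 in treated retinas, against 14.14, 13.91 and 13.87 in control retinas. All treated values but that of replicate 3 lay above all control values. The difference was 0.16 (SE 0.097, adjusted p = 0.754), above 0 in each pair, a fold of 1.12 with a 95% interval of 0.956 to 1.31. Set 2 (Mmu.13105.1.S1_at) had 12.73, 12.74 and 12.96 in treated retinas, against 12.49, 12.92 and 12.61 in control retinas. It was higher in 2 of 3 pairs, with a difference of 0.14 (SE 0.12, adjusted p = 0.814). The 2 probe sets thus gave like differences, and their 95% intervals in this fit reach no further than a fold of 1.34.

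PMP22, a membrane protein of the myelin that Schwann cells make, gave 3 different answers by its 3 probe sets. Set 1 (MmugDNA.19278.1.S1_at) had log2 signals of 10.17, 10.27 and 10.75 in treated retinas, against 10.17, 10.55 and 10.40 in control retinas. Its difference was 0.025 (SE 0.13, 95% interval −0.29 to 0.34, adjusted p = 0.979), and the pairs stood at 0.0026, −0.28 and 0.35, of both signs. Set 2 (MmuSTS.2073.1.S1_at) had 9.58, 10.18 and 9.86 in treated retinas, against 9.35, 9.80 and 9.44 in control retinas. Each treated retina exceeded its own control, although the treated value of replicate 1 lay below the control value of replicate 2. The pairs differed by 0.23, 0.38 and 0.42, and the mean difference of 0.34 (SE 0.11, a fold of 1.27, unadjusted p = 0.0167, adjusted p = 0.686 from limma) did not pass. Set 3 (MmugDNA.19277.1.S1_at) had 8.15, 6.39 and 7.75 in treated retinas, against 7.94, 7.75 and 7.67 in control retinas. Only the treated retina of replicate 2 stood apart, and the difference of −0.36 (SE 0.33, adjusted p = 0.828) became 0.14 without that pair.

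The markers of fibroblasts and meninges, cells that make PMP22, went different ways. Of the 5 of 6 that were measured, 2 stood above 0 and 3 below it, with a median of −0.089 and 0 past the test. Their summed linear signal was 1341 to 1509 in treated retinas and 1573 to 1884 in control retinas, and the groups did not overlap in this sum, most of which came from the bright genes LUM (−0.64) and DCN (−0.089). The 5 endothelial markers summed to 1756 to 2955 in treated retinas and 1707 to 2965 in control retinas. Their part in the PMP22 values was not tested.

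OLIG2 and SOX10 are transcription factors. OLIG2 directs the oligodendrocyte lineage, and SOX10 acts in oligodendrocytes, Schwann cells and other cells of the neural crest. OLIG2 set 1 (MmugDNA.17552.1.S1_at) had log2 signals of 6.51, 6.37 and 4.61 in treated retinas, against 5.82, 5.94 and 4.33 in control retinas. Both retinas of replicate 3 were low, and within each pair the treated retina was the higher. The difference was 0.47 (SE 0.49, 95% interval −0.67 to 1.60, adjusted p = 0.850 from limma). Set 2 (MmugDNA.17554.1.S1_at) had 3.59, 3.84 and 4.65 in treated retinas, against 3.67, 4.80 and 4.77 in control retinas, and it was lower in 3 of 3 pairs (difference −0.39, SE 0.71, adjusted p = 0.923). The probe sets of OLIG2 thus differed in sign, and all 6 values of set 2 lay under a log2 signal of 5. Immunostaining for the OLIG2 protein was done by the study in the optic nerve, which is not the tissue measured here.

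SOX10 set 1 (MmugDNA.2266.1.S1_at) had log2 signals of 5.77, 5.51 and 5.16 in treated retinas, against 5.84, 5.90 and 5.46 in control retinas. The difference was −0.26 (SE 0.48, 95% interval −1.38 to 0.87, lower in 3 of 3 pairs, adjusted p = 0.925 from limma). Set 2 (MmuSTS.3895.1.S1_at) had 5.88, 4.77 and 4.38 in treated retinas, against 5.19, 6.57 and 6.09 in control retinas. Replicates 2 and 3 were lower in the treated retina by over 1 and replicate 1 was higher, and the difference of −0.94 (SE 0.65, adjusted p = 0.779) did not pass. Markers of the pigment epithelium were set beside it. The 5 of 7 that were measured had a median difference of −0.33, with 1 of 5, TYR (0.62), above 0. Only MLANA, a melanosome protein, was lower in 3 of 3 pairs (−0.31, SE 0.14, adjusted p = 0.744 from limma). Their summed linear signal was 1568 to 2935 in treated retinas and 2488 to 2964 in control retinas, so the groups overlapped. Whether the pigment epithelium makes SOX10, and its part in the SOX10 values, was not tested.

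**Figure D2:**
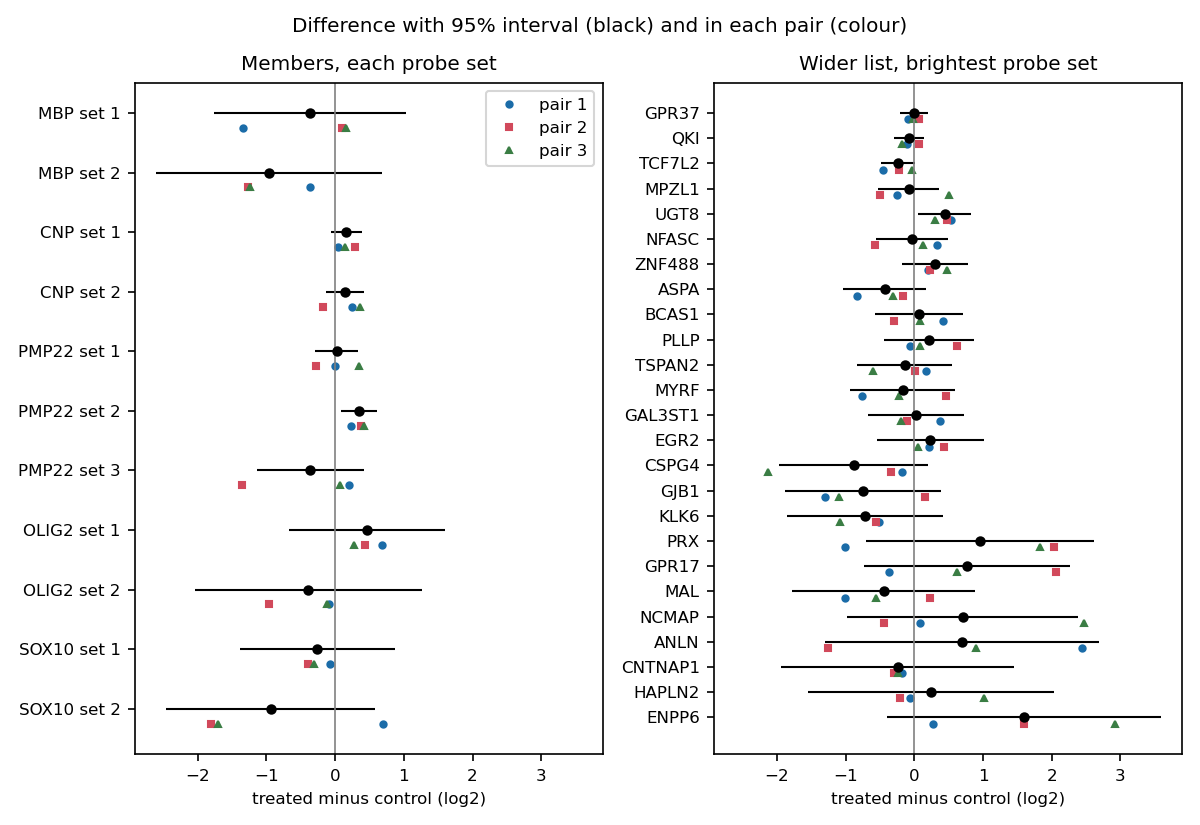
Treated minus control difference (horizontal axis, log2) of each member probe set (left panel) and of the brightest probe set of 25 other myelin and oligodendrocyte genes in order of mean signal (right panel), with the 95% interval in black and the 3 pairs in colour. Among the members only the interval of PMP22 set 2 lies clear of 0, before adjustment, and intervals widen from the bright genes at the top of the right panel to the dim ones at its foot.

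How far a difference could be seen in this fit depended on the signal. The standard errors of the CNP sets were 0.097 and 0.12, those of PMP22 sets 1 and 2 were 0.13 and 0.11, and those of MBP, OLIG2 and SOX10 ran from 0.48 to 0.71. The median standard error over all probe sets was 0.10 at a mean log2 signal of 10 or more, 0.57 between 5 and 6 and 0.87 under 5. For MBP set 1, the fold between treated and control retinas had a 95% interval of 0.295 to 2.05, and for SOX10 set 1 of 0.384 to 1.82. This fit does not exclude changes inside those intervals, which are not limits of detection. These errors rest in part on the trend of the variance with signal. With no trend in the variance prior the standard error was 0.165 for SOX10 set 1, 0.174 for OLIG2 set 1, 0.272 for MBP set 2 and 0.158 for CNP set 1. The interval of MBP set 2 was then −1.78 to −0.15 (unadjusted p = 0.0321, adjusted p = 0.863 from limma). The probe sets of 1 gene differed in sign for 2 of the 5 genes (OLIG2 and PMP22), and for 55.2% of the 6375 named genes with more than 1 probe set.

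**Figure D3:**
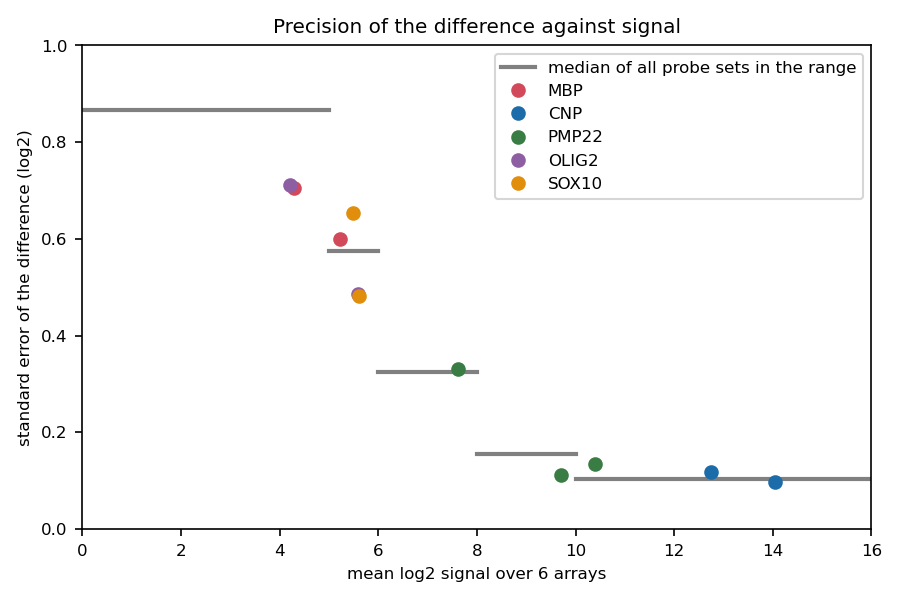
Standard error of the treated minus control difference (vertical axis, log2) against mean log2 signal over the 6 arrays (horizontal axis) for the 11 probe sets, with the median of all probe sets in each signal range as a grey line. CNP sits at the precise end, near 0.10, and MBP, OLIG2 and SOX10 at 0.48 to 0.71. These errors rest in part on the fitted trend of the variance with signal. With no trend CNP set 1 was at 0.158, SOX10 set 1 at 0.165 and OLIG2 set 1 at 0.174.

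The levels were also compared from monkey to monkey. For 4 of the 5 genes by set 1, the range of the 3 animals' means was larger than the largest difference within a pair. It was so for 54.1% of the brightest probe sets of all named genes. It was also so for 6 of the 11 member probe sets, as against 47.8% of all probe sets, and for 11 of the 25 genes of the wider myelin list. The means over both retinas of MBP set 1 were 3.69, 6.04 and 5.95 in replicates 1 to 3, those of OLIG2 set 1 were 6.16, 6.15 and 4.47, and those of PMP22 set 2 were 9.47, 9.99 and 9.65. By set 1 MBP was lowest in replicate 1 and OLIG2 in replicate 3, but by set 2 MBP was lowest in replicate 3 (3.72) and OLIG2 in replicate 1 (3.63). The replicate number was tested in the same fit, with treatment held. After adjustment 0 of 5 genes passed, as against 13.4% of all probe sets (adjusted p = 0.104 for MBP set 1, 0.140 for OLIG2 set 1 and 0.0847 for PMP22 set 2, limma F test), and 2 of 5, MBP and OLIG2, had an unadjusted p under 0.05, as against 28.9% of all probe sets.

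**Figure D4:**
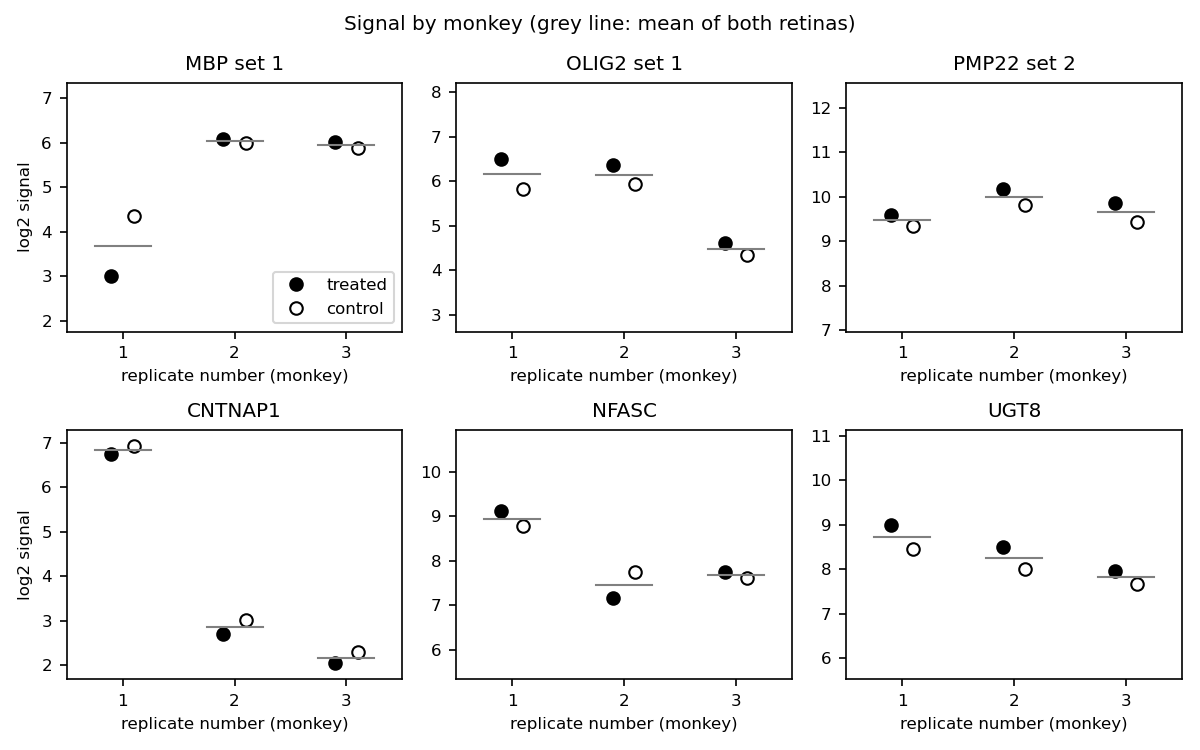
Log2 signal (vertical axis) in the treated (filled) and control (open) retina of each monkey (horizontal axis), with the mean of both retinas as a grey line, for 3 members (top) and 3 genes of the wider myelin list (bottom). Both retinas of replicate 1 are low for MBP and high for CNTNAP1 and NFASC, and both of replicate 3 are low for OLIG2.

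A wider list of 43 other genes of myelin, oligodendrocytes, their precursors and Schwann cells was set beside these. Of them 25 were measured, and 0 of 25 passed after adjustment in either direction, while an unadjusted p under 0.05 was reached by 1 higher and 0 lower genes, as against the 6.74% of all probe sets given above. Over all 50 of their probe sets it was reached by 2 higher and 4 lower ones. Among the lower ones was the dimmer probe set of MYRF (−1.13, SE 0.46, unadjusted p = 0.0407, adjusted p = 0.734 from limma). It was lower in 3 of 3 pairs, while the brightest probe set of MYRF stood at −0.17 (SE 0.33). The median difference of the 25 genes was −0.012, with 12 above 0 and 13 below it. The rest of the list was not analysed here. UGT8, the enzyme that makes the myelin lipid galactosylceramide, had log2 signals of 8.99, 8.49 and 7.96 in treated retinas, against 8.45, 8.01 and 7.67 in control retinas. It was higher in 3 of 3 pairs while the groups overlapped (difference 0.44, SE 0.17, unadjusted p = 0.0307, adjusted p = 0.730 from limma), and its dimmer probe set gave 1.45 (SE 0.89), which became 0.15 without replicate 3, whose control retina had a log2 signal of 1.12. TCF7L2, a transcription factor of Wnt signaling that acts in oligodendrocyte differentiation in the mouse, had 11.34, 11.53 and 11.76 in treated retinas, against 11.79, 11.76 and 11.80 in control retinas. Its difference was −0.24 (SE 0.11, lower in 3 of 3 pairs, adjusted p = 0.748). All 6 of its probe sets stood below 0, the second with a difference of −0.42 (SE 0.090, unadjusted p = 0.00178, adjusted p = 0.375) and no overlap between 11.24 to 11.55 in treated and 11.67 to 11.88 in control retinas. Of the 50 probe sets of the wider list, 3 had no overlap between the groups, as against 6.63% of all probe sets. The 6 probe sets of TCF7L2 read RNA of the same retinas and are not independent.

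The brightest probe sets of the other bright genes of the wider list stood close to 0. GPR37, a receptor of oligodendrocytes, stood at −0.012 (SE 0.088), QKI, an RNA-binding protein that handles myelin transcripts, at −0.074 (SE 0.093), and MPZL1, a membrane glycoprotein, at −0.084 (SE 0.19). QKI had 8 probe sets in all, and 1 of the dimmer ones was lower in 3 of 3 pairs (−0.43, SE 0.16, unadjusted p = 0.0327, adjusted p = 0.730 from limma). CSPG4, the NG2 proteoglycan of precursors and pericytes, stood at −0.88 (SE 0.47, adjusted p = 0.752) and was set by the treated retina of replicate 3 at 4.55, while the other 5 retinas lay between 6.47 and 7.30. Its other probe sets gave 0.33 and 0.23. ENPP6, a marker of newly formed oligodendrocytes in the mouse, stood at 1.60 (SE 0.86, adjusted p = 0.752), with 4.43, 3.89 and 5.05 in treated retinas against 4.16, 2.30 and 2.13 in control retinas, mostly under a log2 signal of 5.

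Between monkeys, 2 of the 25 genes passed the F test by their brightest probe set, as against the 13.4% of all probe sets given above, and 3 of the dimmer probe sets of TCF7L2 also passed (adjusted p = 0.0266, 0.0357 and 0.0388). CNTNAP1, the axonal protein of the paranodal junction, had log2 signals of 6.74, 2.71 and 2.05 in treated retinas, against 6.93, 3.01 and 2.29 in control retinas (adjusted p = 0.0238 from limma). Both retinas of replicate 1 stood far above the other 4. NFASC, neurofascin, had 9.11, 7.17 and 7.74 in treated retinas, against 8.78, 7.73 and 7.61 in control retinas (adjusted p = 0.0210, and 0.00800 by its other probe set). Without replicate 1 neither passed (adjusted p = 0.908 for CNTNAP1 and 0.901 for NFASC), and only 80 of all 52024 probe sets did. With no trend in the variance prior (0.207 and 0.235) neither passed. With values under 5 set to 5 (0.0796 and 0.173) neither passed. Under each of those 2 settings 0 of all 52024 probe sets passed the F test, so this says nothing particular about CNTNAP1 and NFASC. Between the eyes, CNTNAP1 stood at −0.24 (SE 0.73) and NFASC at −0.036 (SE 0.23), and neither passed.

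Other glial markers gave the setting of these values. The astrocyte marker GFAP, an intermediate filament, rose by 2.14 (SE 0.23, adjusted p = 0.0303 from limma) on the brighter of its probe sets. That adjusted p was 0.158 without replicate 1 and 0.851 without the pairing. On the other probe set GFAP stood at 0.099 (SE 0.13, adjusted p = 0.893). The summed linear signal of the 5 astrocyte markers that were measured was 16898 to 32972 in treated retinas and 9290.0 to 14268 in control retinas. Most of this sum came from GFAP and from SLC1A3 (0.58, adjusted p = 0.164), which is also a marker of Muller glia. S100B stood at 0.17, ALDH1L1 at 0.12 and the dim PAX2 at 1.66, and none of these passed. The 6 Muller glia markers summed to 59496 to 78071 in treated retinas and 61819 to 78995 in control retinas, with 3 above 0. The summed signal of the 4 oligodendrocyte markers was 239.9 to 362 in treated retinas and 260.2 to 305 in control retinas, so those groups overlapped. The 4 Schwann cell markers that were measured summed to 233 to 342 in treated retinas and 142 to 254 in control retinas, and 3 of the 4 stood above 0, with 0 past the test.

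The pattern over the 6 arrays was compared between each bright member and 9679 other named genes whose mean signal exceeded that of the median probe set. CNP set 1 was most like ACBD6, TRMT11 and BCLAF3, with Pearson's r of 0.98, 0.98 and 0.98, and 177 genes had an r over 0.9 with it. PMP22 set 1 was most like RWDD3, PIGN and ZBTB7A, with r of 0.99, 0.99 and 0.98, and 62 genes had an r over 0.9. The 6 arrays come from 3 animals and share their scaling, so these values only describe the arrays. MBP, OLIG2 and SOX10 were below the median signal and were not compared.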

How the data were processed

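Total RNA of 6 temporal retinas was hybridized to 1-color Affymetrix arrays. The authors deposited log2 values of the MAS5 signal, computed in GeneSpring, which scales each array to a common mean. The 2% trimmed means of the linear signals were 505.3 to 505.8. Detection calls were not used. Treated minus control was fitted over 52024 probe sets by limma (version 3.58.1, R version 4.3.3), using lmFit and a trended eBayes, blocking on replicate number, and Benjamini-Hochberg adjustment over all probe sets. No filter and no further normalization were applied. The same fit gave the F test of the replicate number. The methods' paired test, which compares both retinas of a monkey, was an alternative. Same-numbered arrays deviated together from their group means (correlations 0.357, 0.137 and 0.161, against −0.243 to 0.104 for different numbers), so numbers were taken as pairs. Each gene was described by its brightest probe set and its others, named through the platform annotation (24956 probe sets with 1 symbol, 361 with several, left unnamed) and updated by gene ID in the reference's gene table. No coordinates or sequences were used. Members and lists were chosen with earlier results of these data known. All members are named. Of the wider list, the 4 brightest genes, the 4 with the largest moderated t and any past a threshold are named, and the 3 genes most like each member with a signal above the median are given. The scripts were tested on simulated data. Figures were drawn with matplotlib 3.10.9. Alternatives were quantile normalization, centring arrays on their medians, no block, no variance trend, leaving out probe sets under a mean log2 signal of 5, a floor at 5, the mean of a gene's probe sets, and leaving out each pair.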

Additional observations from a re-analysis of the deposited data

How the results depend on the processing

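Under every alternative tried, 0 of the 5 members passed between treated and control retinas after adjustment, and the lowest adjusted p of any member probe set was 0.246. With no block, no trend, the floor at 5 or the methods' t-test, 0 of all 52024 probe sets passed, so these 4 settings say nothing particular about the members. The difference itself cannot change with no block, no trend, the methods' t-test or dim probe sets left out. Under the alternatives that can change it, 60 of 64 values of single member probe sets kept their direction, as did 5 of 5 gene means. MBP set 2 and OLIG2 set 2 gave no value with the floor at 5. The 4 that reversed were MBP set 1, at 0.085 with values under 5 set to 5 and at 0.13 without replicate 1, PMP22 set 1 at −0.14 without replicate 3, and PMP22 set 3 at 0.14 without replicate 2. With 1 pair left out these ran from −0.62 to 0.13, from −0.14 to 0.18 and from −0.64 to 0.14. The median of the members, 0.025, was 0.12 with arrays centred on their medians and ran from −0.14 to 0.13 with 1 replicate pair left out. The median of the wider list, −0.012, was 0.085 with arrays centred, 0.070 with the mean of a gene's probe sets and −0.054 to 0.096 with 1 pair left out, and by the methods' t-test at an unadjusted p under 0.05 it had 2 genes past the threshold. Between monkeys, 2 members passed the F test with arrays centred (MBP, adjusted p = 0.0447, and PMP22, 0.0336). With 1 pair left out 0 to 1 passed, the 1 being PMP22 without replicate 2 (adjusted p = 0.0172). Of all 52024 probe sets, 8130 passed this test with arrays centred, against 6950 in the main fit. Dropping the pair of replicate 2 raised that count to 12397. It came to 7793 when replicate 3 was dropped and to only 80 when replicate 1 was. The count thus moved over all probe sets and not only among the members. The cause of these shifts was not tested.

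Over all probe sets, 58 passed between treated and control retinas. With no replicate block, no trend in the variance prior, values under 5 set to 5, or the methods' t-test after adjustment, 0 passed (1275, 2889, 3196 and 2891 at an unadjusted p under 0.05), and 17 to 222 passed with 1 pair left out, the fewest without replicate 1 and the most without replicate 2. No member passed with the replicate block, and without it no probe set did, so no call of a member could change. Signals under a log2 of 5 scatter widely over all probe sets, and MBP set 2 and OLIG2 set 2 had the largest standard errors (0.71 and 0.71). These rest on the trend of the variance, as with no trend they were 0.27 and 0.27. Their own pair differences had standard deviations of 0.51 and 0.50, against 1.41 for SOX10 set 2.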
